A study of Mus musculus with 4 samples.

Results

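Nuclear receptors are transcription factors of one family, in which a DNA-binding domain is joined to a domain that in many members binds a lipid-soluble ligand such as a fatty acid derivative, a retinoid, a steroid, vitamin D or thyroid hormone, while orphan members act without a known one. Many of them bind DNA as pairs with an RXR partner, and in macrophages they link lipid supply to gene expression. Pparg is the best known of them in alveolar macrophages, which live in the airspaces and clear surfactant, whose differentiation it directs. All 45 nuclear receptor genes of a list drawn up by name were found among the 27095 gene windows of the count table.

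H3K27me3, the repressive histone mark laid down by the Polycomb complex PRC2, was profiled by Cut&Tag, a method that inserts sequencing adapters with a transposase wherever the antibody sits. The study asked what loss of Suz12, a core PRC2 subunit, does to the mark. The 2 cKO libraries came from lethally irradiated C57BL/6-Ly5.1 mice given marrow that was 90% Suz12 cKO Ly5.2 and 10% wt Ly5.1, and the 2 WT libraries from hosts whose marrow was 90% wt Ly5.2 and 10% wt Ly5.1. By these mixes, wild-type Ly5.1 marrow went into the hosts of both genotypes. Each library held 100000 alveolar macrophages sorted from lung. The driver of the deletion, the age and sex of the mice, and whether the sort kept Ly5.1 donor or host cells out are not stated in the sources at hand.

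Gene windows held 3331138 and 3567282 counts in the cKO libraries and 2592297 and 2142175 in the WT libraries. Over genes, chi-square divided by its degrees of freedom came to 1.79 for the pair of cKO libraries and 1.94 for the WT pair, so each pair was more variable than counting alone gives. The Suz12 window held 11 and 10 counts in cKO and 8 and 10 in WT, which does not check the deletion, since the window spans the whole gene. Levels are given as CPM, counts scaled to a common library size after TMM normalisation. They are shares, blind to a uniform gain or loss, and fewer marked cells cannot be told apart from less mark per cell. Tested genes on a list of alveolar macrophage markers (11 of 20) stood at a median of 0.260 CPM per kb in cKO and 0.245 in WT, against 2.08 and 1.76 for lung epithelial genes (11 of 12), so the repressive mark was low over the labelled cell type's own genes.

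The 45 genes spanned the range from almost unmarked to among the most marked windows in the genome. Of 38 that passed the count filter, 8 (21.1%) lay in the top decile of all 16752 tested genes by CPM per kb, and 24 lay above the median of all tested genes, 0.682. Highest and lowest tested receptor genes differed 255-fold in mean CPM per kb over the 4 libraries. Nr2e1, Nr5a1, Nr4a2, Nr2f2, Nr2f1 and Nr4a3 stood highest, and Nr3c1, Nr2c1 and Rxrb lowest. The place of Rxrb is not a measured level, since 90.2% of its window is shared with other windows. Spearman's rho between the cKO and WT levels of the 45 genes was 0.96, as a description, and 5 of the 38 tested genes differed by more than 1.5-fold between cKO and WT.

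**Figure D1:**
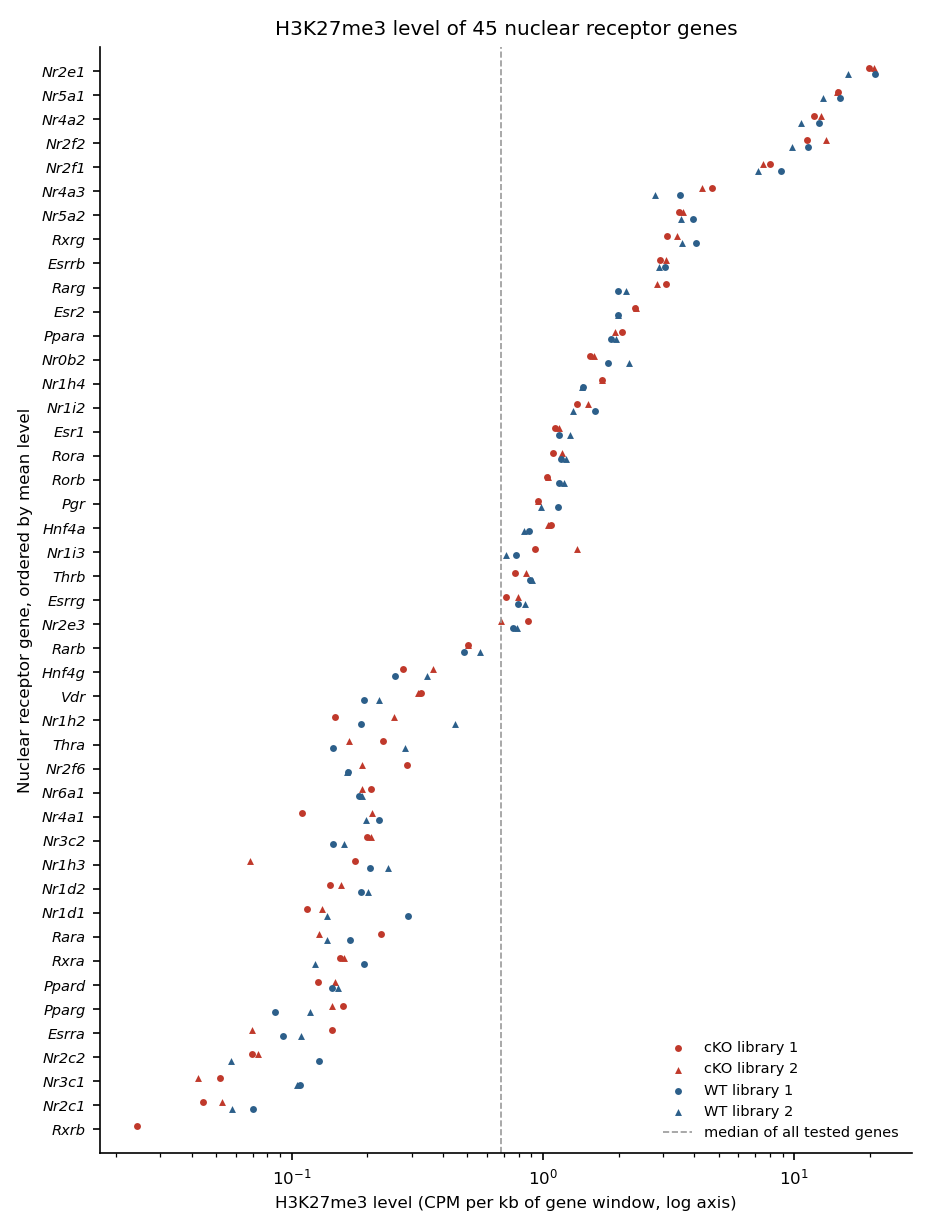
H3K27me3 level of each of the 45 nuclear receptor genes in CPM per kb of gene window on a log axis, with cKO libraries in red and WT libraries in blue, circles for library 1 and triangles for library 2, and a dashed line at 0.682, the median of all tested genes. Nr2e1 stands highest, and libraries of the 2 genotypes mix at most genes. Rxrb is drawn lowest, but 90.2% of its window is shared with other windows and its level could not be measured. Libraries at 0 counts, 3 of the 4 for Rxrb, are not drawn.

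Few receptor genes were called different between genotypes. With edgeR's quasi-likelihood test and Benjamini-Hochberg adjustment over all 16752 genes, 2 of 38 were called gained in cKO, Rarg and Nr4a3, and 0 were called lost. That is 5.26% of the tested receptors, near the background of 6.42% called among all tested genes (4.46% gained and 1.96% lost). At an unadjusted p below 0.05 there were 7 receptor genes with higher and 2 with lower values in cKO, beside 1722 higher and 1383 lower among all tested genes (18.5%). DESeq2's Wald test called 1 gained, Nr4a3, and 0 lost. The median log2 fold change was −0.01 for the receptors and −0.01 for all tested genes. cKO and WT libraries did not overlap at 18 of the 38 (47.4%), against 47.6% of all tested genes. Among the 36 tested receptor genes that were not called, the 95% interval of the fold change lay within 2-fold either way for 28 and within 1.5-fold for 21. The 7 others are not part of these counts, because a gene passes the filter through its higher group.

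**Figure D2:**
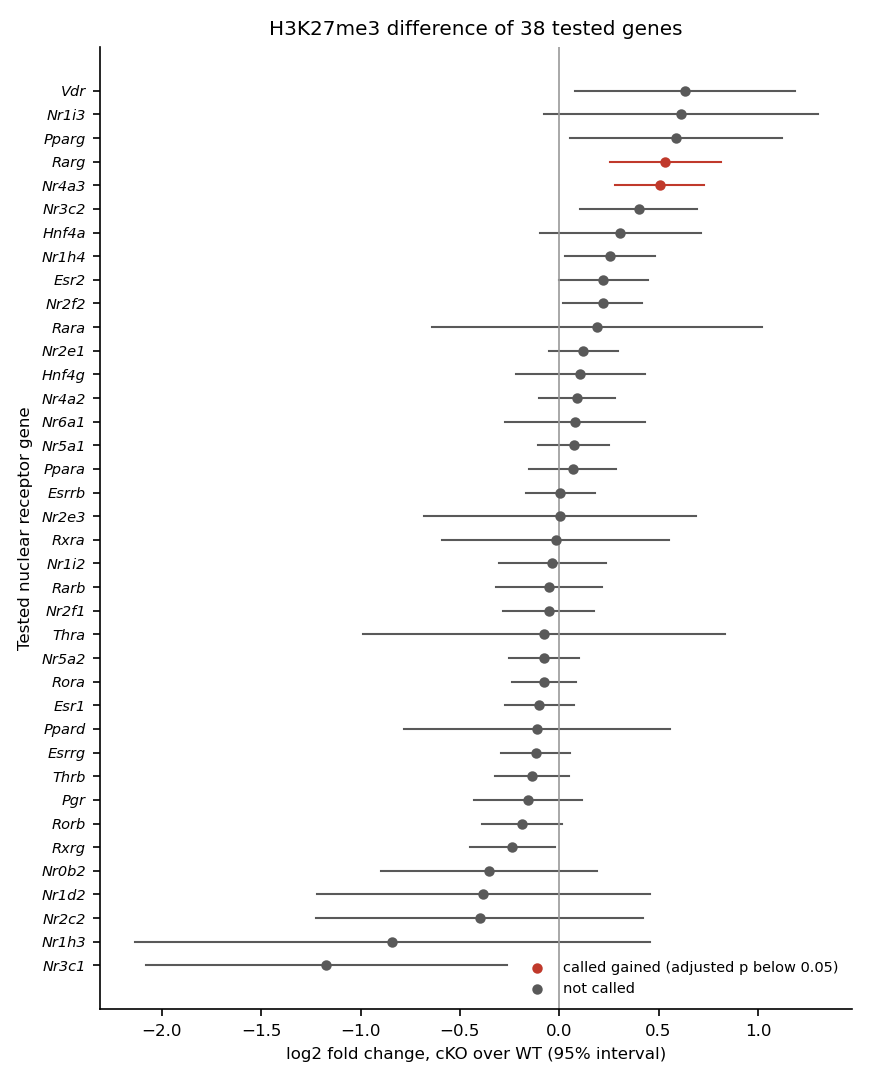
log2 fold change of H3K27me3, cKO over WT, for the 38 tested nuclear receptor genes with 95% intervals, ordered by size; red marks the genes called gained. Rarg and Nr4a3 lie to the right of 0, while Vdr, Nr1i3 and Pparg have larger estimates with wider intervals and were not called.

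The most marked receptors were orphan factors of development. Nr2e1, which encodes the neural stem cell factor TLX (chromosome 10, 42561963 to 42583590 in GRCm38), had 549.8 and 577 CPM in the cKO libraries and 580.1 and 454 in the WT libraries. Its 27.6 kb window carried 20.4 ± 0.692 CPM per kb in cKO and 18.7 ± 3.24 in WT (SD, n = 2 each), higher than 99.6% of tested genes. The genotypes overlapped, and the log2 fold change was 0.12 ± 0.09 (SE, adjusted p = 0.499). Nr5a1, which encodes SF1, the regulator of adrenal and gonad development, had 418 and 412 CPM in cKO and 423 and 364 in WT, or 14.9 ± 0.165 and 14.1 ± 1.49 CPM per kb, again with overlap (log2 fold change 0.07 ± 0.09, adjusted p = 0.737). Nr4a2, whose product Nurr1 is needed for dopaminergic neurons, had 272 and 293 CPM in cKO and 287 and 243 in WT (log2 fold change 0.09 ± 0.10, adjusted p = 0.694).

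Both COUP-TF genes of vascular and neural patterning were strongly marked, and the third member of that class was not. Nr2f2 had 233 and 278 CPM in cKO and 236 and 203 in WT, a log2 fold change of 0.22 ± 0.10 (adjusted p = 0.208). Nr2f1 had 128 and 121 CPM in cKO and 142 and 115 in WT, a log2 fold change of −0.05 ± 0.12 (adjusted p = 0.872). Their levels per kb were 12.3 ± 1.53 in cKO and 10.6 ± 1.10 in WT for Nr2f2, and 7.77 ± 0.305 and 8.02 ± 1.16 for Nr2f1. Windows of antisense or neighbouring transcripts overlap 35.4% of the Nr2f2 window and 43.1% of the Nr2f1 window; how reads in the shared stretches were counted is not stated. Per kb of unshared window the levels were 19.0 in cKO and 16.3 in WT for Nr2f2, and 13.7 and 14.1 for Nr2f1. Nr2f6, which encodes the broadly expressed member EAR2, held 13 and 9 counts in cKO and 6 and 5 in WT, below the filter, in a window overlapped by 66.9%.

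WT library 2 was the lowest of the 4 at each of the 6 most marked receptor genes, which are Nr2e1, Nr5a1, Nr4a2, Nr2f2, Nr2f1 and Nr4a3. Their summed level was 1781 and 1844 CPM in the cKO libraries, and 1802 and 1486 CPM in the WT libraries. Over all genes in the top decile of level, WT library 2 was the lowest library at 67.7%. Without WT library 1, Nr2e1 was called gained (log2 fold change 0.32, adjusted p = 0.0168), which rests on WT library 2 alone for its WT value. Its sign turned without WT library 2 (−0.03, adjusted p = 0.92). The part of this spread between WT libraries in the other gains was not tested, other than by leaving out each library.

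Close relatives of the most marked receptors ranged from weakly marked, as Nr6a1, to the top decile of level, as Nr5a2. Nr6a1, which encodes the germ cell factor GCNF, lies 8826 bp from Nr5a1 on chromosome 2. Its window had 0.199 ± 0.0125 CPM per kb in cKO and 0.188 ± 0.00357 in WT. The means per kb over 4 libraries differed 75.0-fold between these neighbours, whose windows are 209 kb for Nr6a1 and 27.9 kb for Nr5a1. Without division by length, Nr6a1 had 41.6 CPM in cKO and 39.3 in WT, and Nr5a1 had 415 and 394. Nr5a2, which encodes LRH1 of liver and pancreas, stood at 3.55 ± 0.0979 CPM per kb in cKO and 3.74 ± 0.298 in WT. Nr2e3, the photoreceptor relative of Nr2e1, had 0.777 ± 0.136 in cKO and 0.774 ± 0.0238 in WT. Its window is 55.3% as long as the RefSeq gene with 3000 bp flanks, and other windows overlap 47.3% of it. Genotypes overlapped for Nr6a1, Nr5a2 and Nr2e3, with adjusted p-values of 0.714 to 0.997. In CPM per kb, the highest member of a class exceeded the lowest tested or untested member 65.1-fold among the NR4A genes. Among the estrogen and progesterone receptor genes this was 2.14-fold. Level per kb fell with window length, with Spearman's rho −0.31 over tested receptors and −0.35 over all tested genes. Ratios per kb between windows of unlike length therefore do not compare genes on equal terms.

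Promoter sequence was set beside these levels for 5 receptors, the strongly marked Nr2e1 and Nr4a2, the gained Rarg, and the weakly marked Pparg and Rxra. Each stretch runs from 250 bases before to 50 bases after the most upstream of the gene's starts in a RefSeq promoter table (GRCm38.p6), which for Pparg and Rxra lies inside the annotated gene span, 5′ to 3′ on the gene's strand, with CG dinucleotides in capitals, since CG-rich promoters are the usual sites of Polycomb binding. They lie at chr10:42583541-42583840 (minus strand) for Nr2e1, chr2:57123954-57124253 (minus) for Nr4a2, chr15:102257473-102257772 (minus) for Rarg, chr6:115360894-115361193 (plus) for Pparg and chr2:27676951-27677250 (plus) for Rxra.
Nr2e1: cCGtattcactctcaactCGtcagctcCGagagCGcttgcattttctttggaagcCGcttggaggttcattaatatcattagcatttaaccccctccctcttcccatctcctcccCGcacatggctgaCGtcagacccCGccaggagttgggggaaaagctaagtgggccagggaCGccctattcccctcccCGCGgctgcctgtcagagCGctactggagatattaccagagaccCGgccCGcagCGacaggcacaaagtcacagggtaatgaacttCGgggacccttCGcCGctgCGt
Nr4a2: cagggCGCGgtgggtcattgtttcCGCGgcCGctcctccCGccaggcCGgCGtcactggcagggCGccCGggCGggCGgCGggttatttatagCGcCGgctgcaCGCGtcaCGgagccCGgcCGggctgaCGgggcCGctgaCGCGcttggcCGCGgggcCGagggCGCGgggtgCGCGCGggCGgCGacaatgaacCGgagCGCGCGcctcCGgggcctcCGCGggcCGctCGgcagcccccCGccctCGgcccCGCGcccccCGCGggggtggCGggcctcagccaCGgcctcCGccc
Rarg: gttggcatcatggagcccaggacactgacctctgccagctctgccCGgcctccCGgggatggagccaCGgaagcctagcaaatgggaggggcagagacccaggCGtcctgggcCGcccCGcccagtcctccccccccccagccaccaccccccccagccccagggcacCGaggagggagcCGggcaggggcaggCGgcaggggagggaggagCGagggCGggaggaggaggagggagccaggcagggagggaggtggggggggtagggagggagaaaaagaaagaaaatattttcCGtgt
Pparg: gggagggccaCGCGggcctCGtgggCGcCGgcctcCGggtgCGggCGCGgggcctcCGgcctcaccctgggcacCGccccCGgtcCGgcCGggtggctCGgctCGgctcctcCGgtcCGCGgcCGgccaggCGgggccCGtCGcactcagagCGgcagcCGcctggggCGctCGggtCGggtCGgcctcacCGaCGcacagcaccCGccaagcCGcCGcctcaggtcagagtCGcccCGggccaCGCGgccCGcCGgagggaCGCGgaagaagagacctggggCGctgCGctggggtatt
Rxra: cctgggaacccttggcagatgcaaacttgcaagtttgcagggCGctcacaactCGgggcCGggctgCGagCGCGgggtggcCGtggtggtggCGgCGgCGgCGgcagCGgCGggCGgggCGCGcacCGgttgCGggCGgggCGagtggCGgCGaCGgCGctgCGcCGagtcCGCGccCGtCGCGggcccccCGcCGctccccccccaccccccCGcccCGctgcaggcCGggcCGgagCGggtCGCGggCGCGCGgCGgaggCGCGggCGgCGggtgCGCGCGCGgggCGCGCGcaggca
Nr4a2 and Rxra had nearly the same number of CG, 52 and 55 in 300 bases, but lay far apart in level. Nr4a2 had 12.4 ± 0.637 CPM per kb in cKO and 11.6 ± 1.39 in WT, and Rxra 0.159 ± 0.00402 in cKO and 0.159 ± 0.0491 in WT. Pparg had 44 CG, Nr2e1 19 and Rarg 12, and the median over promoters of 27025 genes was 7. A CG-rich start thus stood in receptor genes of high and of low level over the whole window. Windows are 22.8 kb for Nr4a2, 92.1 kb for Rxra and 135 kb for Pparg, so the mark at the start itself was not measured. Only 1 start per gene was scored, of 3 listed for Pparg and 2 each for Rxra and Rarg. Over the 34 of 38 tested receptors with a listed promoter, Spearman's rho between the number of CG and mean CPM per kb was −0.24, given as a description of genes measured in the same 4 libraries. The core element that many nuclear receptors bind, AGGTCA on either strand, was present in 6 of 41 listed receptor promoters, Pparg and Rarg among them, against 15.98% of all 27025, and the 8-base form bound by NR4A proteins, AAAGGTCA, which contains AGGTCA, was in 0 of 41 against 1.46%.

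**Figure D3:**
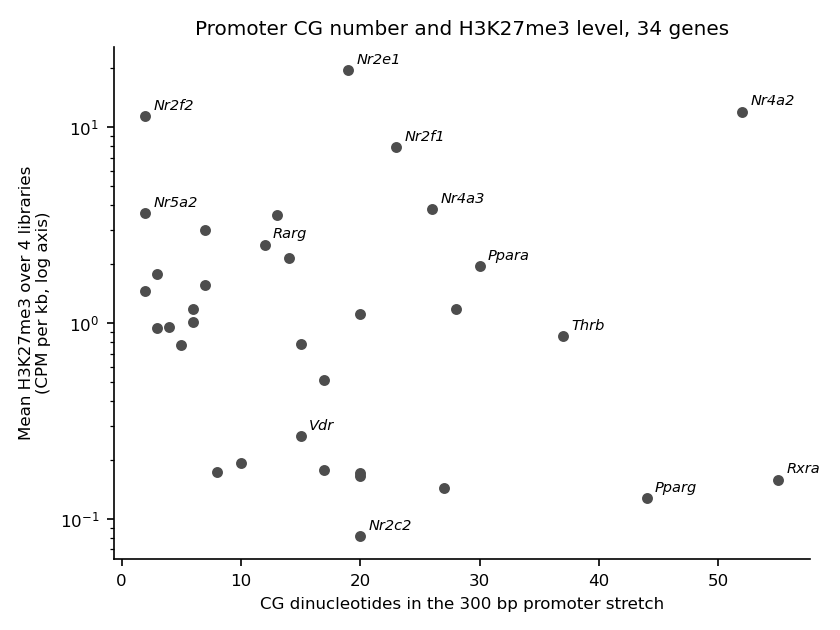
Mean H3K27me3 over the 4 libraries in CPM per kb (log axis) against the number of CG dinucleotides in the 300 bp promoter stretch, 1 point for each of 34 tested nuclear receptor genes. Genes with over 40 CG lie both high (Nr4a2) and low (Pparg and Rxra).

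Receptors for fatty acids and sterols, and their RXR partners, were mostly little marked. Pparg (chromosome 6, 115360879 to 115490404) had 21.7 and 19.6 CPM in the cKO libraries and 11.6 and 16.03 in the WT libraries, from 71, 67, 30 and 35 counts. Both cKO values lay above both WT values, yet at 0.153 ± 0.0112 CPM per kb in cKO and 0.102 ± 0.0230 in WT the window ranked above only 14.2% of tested genes. The log2 fold change was 0.59 ± 0.27, 1.504-fold higher in cKO, with a 95% interval of 0.05 to 1.12, and was not called (adjusted p = 0.208). Its adjusted p ran from 0.130 to 0.656 over 13 alternative settings, with a positive fold change in each. Ppard, the broadly expressed member of the class, had 9.48 and 11.1 CPM in cKO and 10.9 and 11.4 in WT. Ppara, the receptor of fatty acid oxidation in liver, was marked 15.4-fold more than Pparg per kb, with 159.6 and 150.1 CPM in cKO and 144 and 152 in WT, and did not differ detectably (log2 fold change 0.07 ± 0.11, adjusted p = 0.813).

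The LXR genes, whose products sense oxysterols and drive cholesterol efflux in macrophages, had few counts. Nr1h3 had 3.06 and 1.17 CPM in cKO and 3.49 and 4.12 in WT, from 10, 4, 9 and 9 counts, and the genotypes did not overlap. This gene passed the count filter through its higher group, WT, so its place among the tested genes is not independent of its direction. Its log2 fold change of −0.84 ± 0.66 was not called (adjusted p = 0.542), and the 95% interval of −2.14 to 0.46 spans losses and gains. Without cKO library 1 it was −1.65 and without cKO library 2 it was −0.30 (adjusted p = 0.582 and 0.944). Nr1h2 held 5 and 9 counts in cKO and 5 and 10 in WT, below the filter, a ratio of 0.664 with an exact binomial 95% interval of 0.297 to 1.48 that covers counting error only. About 48.3% of the Nr1h3 window and 50.2% of the Nr1h2 window overlap other windows, and the Nr1h3 window is 68.9% as long as the RefSeq gene with flanks. By contrast Nr1h4, the bile acid receptor FXR of liver and gut, carried 146 and 147 CPM in cKO and 124 and 122 in WT, close within each genotype, with a log2 fold change of 0.25 ± 0.11 that missed the threshold after adjustment (adjusted p = 0.193).

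Rxra, the main partner of Pparg in macrophages, had 14.4 and 14.9 CPM in cKO and 17.8 and 11.4 in WT, so that both cKO libraries lay between the WT libraries (log2 fold change −0.02 ± 0.29, adjusted p = 0.985). Rxrg, the form found in muscle and nervous system, stood at 3.27 ± 0.229 CPM per kb in cKO and 3.84 ± 0.348 in WT, against 0.159 ± 0.00402 and 0.159 ± 0.0491 for Rxra. Both cKO values of Rxrg, 147 and 162 CPM, lay below both WT values, 193 and 169.9 CPM (log2 fold change −0.24 ± 0.11, adjusted p = 0.206). It was called lost with upper-quartile factors (−0.32, adjusted p = 0.0496) and among genes with a mean of at least 50 counts (−0.29, adjusted p = 0.0449). Rxrb held 1 and 0 counts in cKO and 0 and 0 in WT, and 90.2% of its window is shared with other windows, so its level could not be measured.

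**Figure D4:**
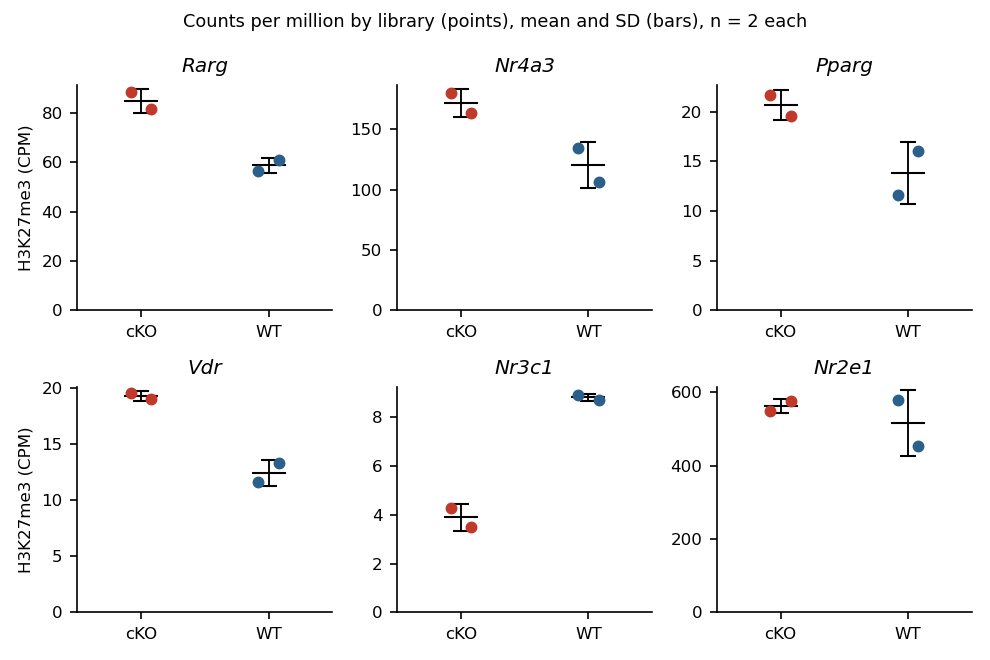
H3K27me3 in CPM by library for Rarg, Nr4a3, Pparg, Vdr, Nr3c1 and Nr2e1, with cKO at the left and WT at the right of each panel, points for the 2 libraries of a genotype, and bars for mean and SD. Genotypes do not overlap for the first 5 genes, of which Rarg and Nr4a3 were called, and overlap for Nr2e1.

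Of the 3 retinoic acid receptor genes, Rarg gained the mark in cKO. Rarg, the receptor of skin and cartilage that is also known from blood progenitors (chromosome 15, 102234938 to 102257522), had 88.4 and 81.5 CPM in the cKO libraries and 56.6 and 60.9 in the WT libraries, with no overlap. Per kb this was 2.98 ± 0.171 in cKO and 2.06 ± 0.106 in WT, and the log2 fold change was 0.53 ± 0.14, or 1.45-fold (adjusted p = 0.0064). The call did not hold by DESeq2 (adjusted p = 0.125), nor without cKO library 1, cKO library 2 or WT library 1 (log2 fold change 0.48, 0.59 and 0.49). The log2 fold change stayed between 0.45 and 0.74 over all 13 settings. The Rarg window overlaps that of Itgb7 over 15.6% of its length. Itgb7 itself was at 49.1 ± 5.38 CPM in cKO and 40.5 ± 3.56 in WT (log2 fold change 0.28, adjusted p = 0.39). Csad, among the 3 nearest genes on that side at 29885 bp and named after its values were seen, also gained, with 70.8 CPM on average in cKO and 47.6 in WT (log2 fold change 0.57, adjusted p = 0.0072), a call that was lost by DESeq2 and without cKO library 1 or WT library 2 (adjusted p = 0.151, 0.271 and 0.0516). On the other side Mfsd5 and Espl1 carried little mark in either genotype, at 0.108 and 0.0745 CPM per kb in cKO and 0.121 and 0.138 in WT.

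Rarb and Rara differed from Rarg in level and were not called. Rarb, itself a classical target of retinoic acid, had 75.5 and 75.6 CPM in cKO and 72.9 and 84.2 in WT (log2 fold change −0.05 ± 0.14, adjusted p = 0.901). Its deposited window of 150 kb is 22.9% as long as the RefSeq gene with flanks, so only part of the gene was counted. Rara, the broadly expressed receptor of myeloid cells, had 9.78 and 5.55 CPM in cKO and 7.37 and 5.95 in WT, or 0.177 ± 0.0693 and 0.154 ± 0.0231 CPM per kb (adjusted p = 0.875).

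Genes that supply, bind and degrade retinoic acid had a median log2 fold change of 0.14 over 13 tested of 17, beside −0.01 for all tested genes. By level, the median of all tested genes was 0.10 in the top decile, with 8.05% called. Between the median level and the top decile it was 0.04, with 7.40% called. Their median level was 4.91 CPM per kb in cKO and 3.20 in WT, medians that fall on different genes and so are not a fold change. Of these, 2 gained and 0 lost by edgeR, at 15.4%, beside the background of 6.42%; at an unadjusted p below 0.05 there were 3 higher and 0 lower, and DESeq2 called 1 gained and 0 lost. Aldh1a2, the enzyme that makes retinoic acid, had 411 and 442 CPM in cKO and 279.98 and 273 in WT, a log2 fold change of 0.62 ± 0.09 (adjusted p = 1.69e-08), and was called under all 13 settings run for it. Cyp26b1, which degrades retinoic acid, had 228 and 249 CPM in cKO and 202 and 179 in WT (log2 fold change 0.32 ± 0.10, adjusted p = 0.0346). It passed under 5 of 13 settings, with adjusted p up to 0.545 without cKO library 2. Other members such as Crabp2, a retinoic acid carrier at 15.2 ± 0.101 CPM per kb in cKO and 13.5 ± 1.67 in WT, were highly marked without a call (adjusted p = 0.464).

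The NR4A genes, immediate-early orphan receptors that macrophages induce on stimulation, stood at 3 different levels. Nr4a3, which encodes NOR1 (chromosome 4, 48045078 to 48086447), gained the mark, with 179.8 and 164 CPM in the cKO libraries and 134 and 107 in the WT libraries. Every cKO value lay above every WT value, at 4.51 ± 0.296 CPM per kb in cKO and 3.16 ± 0.510 in WT, and the log2 fold change was 0.51 ± 0.11, or 1.42-fold (adjusted p = 0.000616). Without cKO library 1 it was 0.45 (adjusted p = 0.112) and without WT library 2 it was 0.37 (adjusted p = 0.0655), and under the other 11 settings it was called. The nearest tested gene on each side was almost free of the mark. Stx17, 38458 bp away, stood at 0.119 CPM per kb in cKO and 0.129 in WT. Tgfbr1, 630151 bp away, stood at 0.0619 and 0.0758. Nr4a2 was more marked and did not differ, as given above. Nr4a1, which encodes Nur77, a factor of patrolling monocytes, held 5 and 10 counts in cKO and 8 and 6 in WT, below the filter, a ratio of 0.762 (0.343 to 1.70 by the exact binomial 95% interval). The Nr4a1 window is 51.9% as long as the RefSeq gene with flanks and that of Nr4a3 80.4%.

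Among the steroid and vitamin D receptor genes, Nr3c1, Nr3c2 and Vdr lay below the median level of all tested genes, and Esr1, Esr2 and Pgr above it. Nr3c1, the glucocorticoid receptor gene (chromosome 18, 39410545 to 39519421), had 4.28 and 3.50 CPM in cKO and 8.92 and 8.70 in WT, with no overlap, from 14, 12, 23 and 19 counts. Its window is 72.0% as long as the RefSeq gene with flanks. The gene passed the count filter through its higher group, WT, so its place among the tested genes is not independent of its direction. It had the lowest fold change of the tested receptors, −1.17 ± 0.46 on the log2 scale (95% interval −2.08 to −0.26), which did not pass adjustment (adjusted p = 0.116), nor under any of 12 other settings (0.0839 to 0.498). Its level of 0.0471 ± 0.00664 CPM per kb in cKO and 0.107 ± 0.00188 in WT was above only 3.07% of tested genes. Nr3c2, the mineralocorticoid receptor gene, had 69.1 and 71.8 CPM in cKO and 50.8 and 56.3 in WT, again without overlap but in the opposite direction (log2 fold change 0.40 ± 0.15, adjusted p = 0.0902).

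Vdr, the vitamin D receptor gene, had the highest fold change of the tested receptors. It stood at 19.6 and 19.0 CPM in cKO and 11.6 and 13.3 in WT, and both cKO values lay above both WT values. The log2 fold change of 0.63 ± 0.28, or 1.55-fold, had a 95% interval of 0.08 to 1.19 and was not called (adjusted p = 0.187). The gene was weakly marked, at 0.322 ± 0.00692 CPM per kb in cKO and 0.208 ± 0.0194 in WT.

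Esr1, Esr2 and Pgr, receptors of estrogen and progesterone, carried intermediate levels. Esr2 had 145.8 and 147 CPM in cKO and 125.6 and 125.5 in WT, tight in each genotype and not overlapping, with a log2 fold change of 0.22 ± 0.11 (adjusted p = 0.281). Esr1 had 445 and 460.6 CPM in cKO and 461.1 and 511 in WT, and Pgr 71.5 and 71.6 in cKO and 85.7 and 73.3 in WT. Genotypes did not overlap for these genes either, with the cKO values lower. Their log2 fold changes were −0.10 ± 0.09 and −0.16 ± 0.14 (adjusted p = 0.601 and 0.597).

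Enzymes that make or break down steroid, bile acid, vitamin D and thyroid ligands held 2 lost genes. Of 19 tested of 23 genes, 0 gained and 2 lost (10.5%, beside 6.42% of all tested genes called and 1.96% lost), with 2 higher and 2 lower at an unadjusted p below 0.05 and 0 called by DESeq2 in either direction. Cyp7b1, an oxysterol hydroxylase, had 79.5 and 84.7 CPM in cKO and 103 and 129 in WT (log2 fold change −0.49 ± 0.13, adjusted p = 0.00473), a call made under 8 of 13 settings. Hsd11b1, which regenerates active glucocorticoid inside cells, had 16.8 and 17.8 CPM in cKO and 30.2 and 26.6 in WT (−0.72 ± 0.24, adjusted p = 0.045), and was called under 4 of 13. The replicate block ended the Hsd11b1 call (adjusted p = 0.0528), as did leaving out any one library. Without cKO library 1, cKO library 2 or WT library 2 Cyp7b1 was not called (adjusted p = 0.182, 0.0993 and 0.284). Dio1, a thyroid hormone deiodinase, was among the most marked genes of the list, at 20.4 ± 0.654 CPM per kb in cKO and 17.2 ± 2.71 in WT (adjusted p = 0.0975).

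Thyroid hormone receptors, the ROR and REV-ERB genes of the circadian clock and their relatives showed no call. Thrb had 297 and 328 CPM in cKO and 341 and 348 in WT, and Rora 802 and 873 in cKO and 866 and 901 in WT. Over windows of 383 and 731 kb these are only 0.816 ± 0.0573 and 1.15 ± 0.0686 CPM per kb in cKO and 0.898 ± 0.0123 and 1.21 ± 0.0340 in WT. Log2 fold changes were −0.14 ± 0.09 for Thrb, −0.08 ± 0.08 for Rora and −0.19 ± 0.10 for Rorb (adjusted p = 0.463, 0.683 and 0.327). Thra and Nr1d1, which overlap tail to tail on chromosome 11, shared part of their windows, 20.7% of the Thra window and 52.6% of that of Nr1d1. Thra had 22 and 17 counts in cKO and 11 and 18 in WT (adjusted p = 0.959), and Nr1d1 5 and 6 in cKO and 10 and 4 in WT, below the filter. Nr1d2, the second REV-ERB gene, had 5.81 and 6.43 CPM in cKO and 7.76 and 8.24 in WT (log2 fold change −0.38 ± 0.43, adjusted p = 0.699). Per kb Thrb was several times above Nr1d2, 163958 bp away on chromosome 14, which stood at 0.149 ± 0.0106 in cKO and 0.195 ± 0.00837 in WT.

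Receptors of liver, gut and metabolism were likewise not called. Nr1i3, the xenobiotic receptor CAR, had 10.1 and 14.9 CPM in cKO and 8.53 and 7.78 in WT, with no overlap (log2 fold change 0.61 ± 0.35, adjusted p = 0.349) and with 64.6% of its window overlapped. Nr1i2, the related receptor PXR, had 71.9 and 79.1 CPM in cKO and 84.9 and 69.1 in WT (adjusted p = 0.935). Hnf4a, the liver and gut regulator, had 34.2 and 33.3 CPM in cKO and 27.9 and 26.6 in WT (log2 fold change 0.31 ± 0.21, adjusted p = 0.447), and its relative Hnf4g 43.7 and 57.8 in cKO and 40.7 and 54.5 in WT (adjusted p = 0.797). The Hnf4a window is 44.0% as long as the RefSeq gene with flanks, and other windows overlap 56.7% of it. Nr0b2, the corepressor SHP that lacks a DNA-binding domain, had 14.1 and 14.6 CPM in cKO and 16.7 and 20.1 in WT (log2 fold change −0.35 ± 0.28, adjusted p = 0.54). Among the estrogen-related receptors of energy metabolism, Esrrb and Esrrg held 486 to 513 and 436 to 488 CPM in cKO and 484 to 511 and 486 to 518 in WT (adjusted p = 0.984 and 0.519), while Esrra held 8 and 4 counts in cKO and 4 and 4 in WT in a window overlapped by 68.4%.

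The orphan receptors TR2 and TR4, known as repressors in red cell development, had the least mark among receptors whose windows were mostly unshared, together with Nr3c1. Nr2c1 held 8 and 10 counts in cKO and 10 and 7 in WT, or 0.0485 ± 0.00607 CPM per kb in cKO and 0.0641 ± 0.00860 in WT, and fell below the filter (ratio 0.753, exact binomial 95% interval 0.366 to 1.56). Nr2c2 had 6.12 and 6.43 CPM in cKO and 11.2 and 5.04 in WT, so the cKO libraries lay between the WT libraries (log2 fold change −0.40 ± 0.42, adjusted p = 0.675). Without WT library 1 the sign turned (0.32, adjusted p = 0.869).

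Genes that act with the receptors differed little by call, and mostly lay at low levels. Of 18 tested coregulators of 22, 0 gained and 1 lost (5.56%, near the 6.42% called over all tested genes), and DESeq2 called 0. At an unadjusted p below 0.05 there were 1 higher and 6 lower, beside 1722 higher and 1383 lower of all 16752. Ncoa2, a coactivator of the p160 group, had 24.8 and 20.2 CPM in cKO and 44.2 and 33.9 in WT (log2 fold change −0.81 ± 0.21, adjusted p = 0.00417). It was not called with housekeeping scaling, by DESeq2, without cKO library 2 or without WT library 1 (adjusted p = 0.214, 0.138, 0.197 and 0.226). The coregulators' median log2 fold change was −0.39, beside −0.15 for all tested genes below the median level, and their median level was 0.0846 CPM per kb in cKO and 0.133 in WT. That band runs up to 0.682 CPM per kb, so its genes are not matched to the coregulators in level. A weakly marked gene can pass the count filter through its higher group alone, so medians and counts of lists with such genes are not independent of the filter. Of 14 tested PPAR and LXR targets of 23, 0 gained and 1 lost (7.14%, again near 6.42%), with a median of −0.34, 0 higher and 4 lower at an unadjusted p below 0.05 and 0 calls by DESeq2. Scd1, the stearoyl-CoA desaturase, had 10.1 and 9.64 CPM in cKO and 19.4 and 17.4 in WT (−0.90 ± 0.30, adjusted p = 0.0483), and was called under 3 of 12 settings. The call was lost with the replicate block (adjusted p = 0.0548) and without any one library. Of 9 tested clock genes of 15, 0 were called by edgeR or DESeq2, with 0 higher and 2 lower at an unadjusted p below 0.05.

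**Figure D5:**
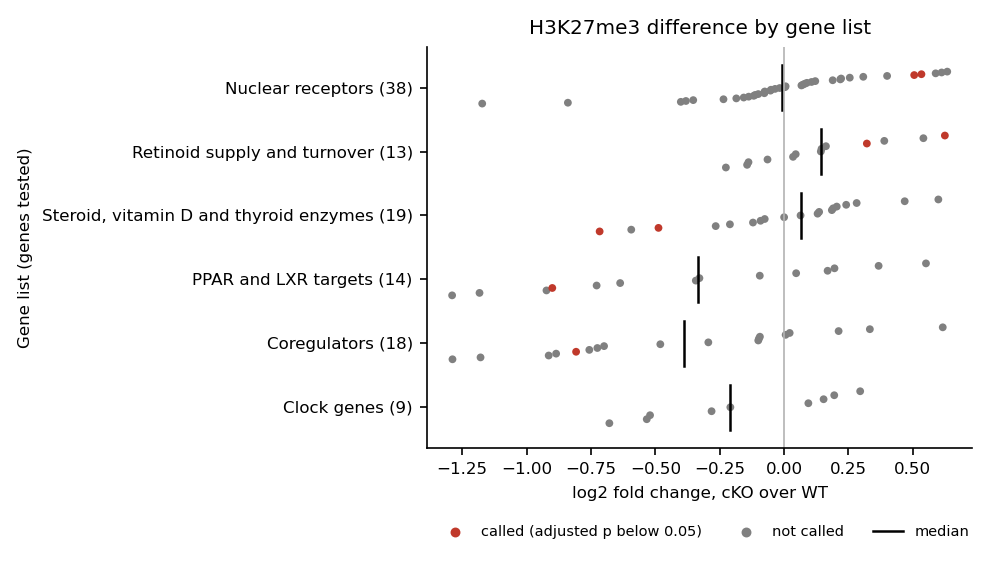
log2 fold change of H3K27me3, cKO over WT, for each tested gene of the nuclear receptor family and of 5 lists of genes that act with it; the number tested is in parentheses, red marks called genes and black bars the medians. With TMM the median of the receptors lies at −0.01, as for all tested genes. Scaling sets this centre, which was 0.20 with housekeeping scaling and −0.09 with upper-quartile factors. The medians of the coregulators and of the PPAR and LXR targets lie at −0.39 and −0.34, beside −0.15 for all tested genes below the median level, which are not matched to them in level. Weakly marked genes can pass the count filter through their higher group alone, so these medians are not independent of it.

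By level, the receptors followed the tested genes as a whole in part. Below the median level, 0 of 14 receptors were called by edgeR or DESeq2, with 3 higher and 1 lower at an unadjusted p below 0.05, beside 5.31% of 8376 genes called, and the medians were −0.03 and −0.15. Between the median and the top decile 1 of 16 receptors gained, beside 7.40% of 6700 genes called. In the top decile 1 of 8 gained, beside 8.05% of 1676, and the median log2 fold change was 0.08 for the receptors and 0.10 for all. Calls among marker genes of other cells stand beside the same 6.42% over all tested genes. Of the tested lung epithelial genes 1 of 11, Hopx, gained (0.54 ± 0.14, adjusted p = 0.00493), and 0 of 8 endothelial, 0 of 6 fibroblast and 0 of 8 T, NK and B genes were called by edgeR or DESeq2, with 0, 0 and 1 at an unadjusted p below 0.05. The part of other cells in the receptor results was not tested.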

How the data were processed

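The authors deposited 1 table of raw counts for 27095 gene windows in 4 H3K27me3 Cut&Tag libraries (paired 36 bp reads, 0.5 µg of antibody); per the submitters' processing notes the counter was featureCounts and the build mm10. The aligner and duplicate handling are not stated. The deposited window lengths, in bp, equal the GRCm38.p6 gene span plus 3000 bp on each side for 11525 genes, whose values cover gene body and promoter; other windows differ in length and can hold part of a gene. Of 2446 windows wholly inside others 67.1% had 0 counts, against 1.27% of 10808 that overlap none; overlaps are approximate where lengths differ from the reference.

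Symbols and positions came from RefSeq (25204 IDs, 93.0%). Genotype was tested with edgeR 4.0.16 under R 4.3.3 (filterByExpr, TMM, glmQLFTest; called at an adjusted p below 0.05), with DESeq2 1.42.0, other scalings and filters, thinning, a replicate block and leaving out each library as alternatives. Standard errors are the fold change's size over the square root of F. CPM use TMM-scaled totals. The fit was first tested on simulated data with a common dispersion. There it recovered 30.4% of 1.5-fold, 64% of 2-fold and 93.2% of 3-fold changes, with 6 false calls among 135. Genes without a call can therefore still differ by 1.5-fold or 2-fold. P-values measure the spread between libraries, which may be technical, and rest mostly on a variance shared over genes (297.6 degrees of freedom per gene, of which the 4 libraries give 2).

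The receptors, their classes, the gene lists and the rule for named genes (Pparg, called genes, the 6 most and 3 least marked, and non-overlapping genes with a log2 change beyond 0.58) were chosen with earlier results of these data known.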

Additional observations from a re-analysis of the deposited data

How the results depend on the processing

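Over all tested genes 747 gained and 329 lost. Gains numbered 494 with upper-quartile factors and 325 by DESeq2's Wald test, and losses 519 with upper-quartile factors, 49 with housekeeping scaling and 52 by DESeq2. Leaving out 1 library at a time gave 350 to 738 gains and 76 to 207 losses, both lowest without cKO replicate 2. Gains made up 69.4% of calls with TMM, 55.7% when only totals were used, 48.8% for upper-quartile factors, 92.4% with housekeeping scaling and 86.2% by DESeq2; housekeeping scaling, which rests on 300 to 414 counts per library, put the median log2 fold change of all genes at 0.20, against −0.01 with TMM.

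Of the receptors, 2 were called gained with TMM, 1 by DESeq2 and 0 to 2 without 1 library, with 0 gained without cKO replicate 1. Losses were 0, and 1 (Rxrg) both under upper-quartile scaling and among genes averaging 50 counts or more. Rarg, Nr4a3 and Rxrg kept their sign in all settings run; Nr2e1, called gained without WT replicate 1 (0.32), fell to −0.03 without WT replicate 2. The cause of these shifts was not tested. With the replicate number as a block 733 genes gained and 306 lost, and the same 2 receptors, Rarg and Nr4a3, were called. The correlation over genes of replicate differences between genotypes was 0.00844. With 1 difference per genotype and few counts at many genes, this value cannot decide whether the replicate numbers pair the libraries. Counts per window limit the weakly marked receptors, as the 95% interval of −2.14 to 0.46 for Nr1h3 shows.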
